A study of Mus musculus with 3 samples.

Results

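A set of 10 genes of T cells and innate lymphoid cells was followed across 3 arrays, namely Gata3, Tcf7, Rora, Bcl11b, Zap70, Lck, Cd3e, Cd3g, Il2rb and Id2. They form a list of names, and every probe set that the platform annotation pairs with one of them alone was used. Of the 10 genes, 8 had such probe sets, 24 in all among 34945 with a single gene symbol. Tcf7 and Lck were paired with none and are not analysed here.

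The arrays held total RNA of bone marrow cells that were positive for Sca-1 and negative for lineage markers, a fraction that contains stem and progenitor cells. All cells came from C57BL/6J mice 10 weeks old, 1 array from wild type animals and 1 array from each of the transgenic Line 6 and Line 3, both labelled Tg(Ly6a-KDM1A*v2, a KDM1A construct named with the gene of Sca-1. KDM1A, also called LSD1, removes methyl groups from histone tails and works within repressor complexes. How many mice an array pooled, and of which sex, is not stated in the labels, and the 2 lines stand for different mice with the same named construct, not for replicates. With 1 array per genotype, no difference below has an error or a p-value.

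Commitment to the T cell fate runs through a chain of transcription factors. Signals through Notch receptors induce Tcf7 and Gata3, which open the T cell programme in thymic progenitors, and Bcl11b then closes off other fates. Innate lymphoid cells lack antigen receptors but use many of the same factors, with Id2 and Rora needed for several of their subsets. In bone marrow, precursors, natural killer cells and mature T cells all use genes of this group, and in bulk RNA fewer cells of a type and less RNA per cell cannot be told apart.

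Start site sequences are shown for 2 pairs of members, because Rora and Gata3 were both above wild type in both lines while the receptor chain genes Cd3e and Cd3g, which lie beside Cd3d on chromosome 9, read lower in Line 3 than in Line 6. These directions were not particular to the pairs. On their brightest probe sets Zap70, Bcl11b and Il2rb were also above wild type in both lines. Bcl11b (-0.28) and Id2 (-0.05) also read lower in Line 3 than in Line 6, beside -0.25 for Cd3g. Each runs from 250 bases before to 50 bases after a start in the RefSeq annotation, build GRCm38.p6, 5′ to 3′ on the gene's own strand. Capitals mark CAGGTG, a site of the E proteins that Id2 holds off DNA, AGATAA, a site of GATA factors, and TGTGGT, a site of Runx factors, on either strand.
Gata3, chr2:9878551-9878850, minus strand: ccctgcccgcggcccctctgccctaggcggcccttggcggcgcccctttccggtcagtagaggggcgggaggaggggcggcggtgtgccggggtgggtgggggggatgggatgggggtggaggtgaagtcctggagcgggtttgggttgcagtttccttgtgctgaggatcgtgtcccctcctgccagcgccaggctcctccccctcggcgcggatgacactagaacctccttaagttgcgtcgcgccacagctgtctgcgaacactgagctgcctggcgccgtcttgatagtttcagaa
Rora, chr9:68653536-68653835, plus strand: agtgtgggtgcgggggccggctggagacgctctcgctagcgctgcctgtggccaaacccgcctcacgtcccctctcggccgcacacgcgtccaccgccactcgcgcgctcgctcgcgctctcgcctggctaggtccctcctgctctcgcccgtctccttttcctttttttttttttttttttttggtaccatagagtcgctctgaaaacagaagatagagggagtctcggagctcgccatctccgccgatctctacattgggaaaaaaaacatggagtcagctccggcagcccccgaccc
Cd3e, chr9:45009562-45009861, minus strand: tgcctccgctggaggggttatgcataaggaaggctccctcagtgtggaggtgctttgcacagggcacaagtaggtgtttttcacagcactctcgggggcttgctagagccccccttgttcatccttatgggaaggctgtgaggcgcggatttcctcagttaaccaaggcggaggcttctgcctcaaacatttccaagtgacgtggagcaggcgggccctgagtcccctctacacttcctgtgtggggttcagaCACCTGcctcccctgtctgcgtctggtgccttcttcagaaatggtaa
Cd3g, chr9:44980382-44980681, minus strand: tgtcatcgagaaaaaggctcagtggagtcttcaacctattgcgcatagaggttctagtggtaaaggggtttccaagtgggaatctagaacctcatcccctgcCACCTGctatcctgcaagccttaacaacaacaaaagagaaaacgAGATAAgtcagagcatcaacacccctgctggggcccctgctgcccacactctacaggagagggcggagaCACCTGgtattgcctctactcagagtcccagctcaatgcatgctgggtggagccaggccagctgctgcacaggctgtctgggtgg
The Gata3 and Rora windows held none of these motifs, the Cd3e window held 1 CAGGTG match and the Cd3g window held 2 CAGGTG matches and 1 AGATAA match. No matches overlapped. Over 32851 windows of the same length in the annotation, 20.2% held CAGGTG, 11.2% held AGATAA and 16.8% held TGTGGT on at least 1 strand. Windows were found for 9 of the 10 genes, 13 windows in all, and 7 of the 13 held CAGGTG. These 7 belonged to 5 genes, namely Zap70, Cd3e, Cd3g and the unmeasured Lck and Tcf7. Some of these genes had several windows, which are not independent. Zap70, above wild type in both lines on its brightest probe set, had 3 CAGGTG matches and 1 TGTGGT match over its 3 windows, and Id2, below it on its brightest, had none of either in its 1 window. Bcl11b, above wild type in both lines on its brightest probe set too, had none of the 3 motifs in its 1 window.

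Intensities were used as deposited, and differences are given on the log2(intensity + 16) scale, which understates the change of dim probe sets. Every fold below, the 2-fold limit included, is a ratio of intensities with that pseudocount of 16 added. Where a gene had several probe sets, the one brightest on average stands for it. The others are given beside it for the members, and for some other genes only. Of 27 related genes checked, 11 had further probe sets at or above the array median on at least 1 array, 15 in all. Of these 15, 1 lay on the other side of wild type from the brightest, a Tcf3 probe set in Line 6 (-0.00083). The array medians were 96.2 for wild type, 116 for Line 6 and 99.0 for Line 3, and 17 of the 24 probe sets reached their array's median on at least 1 array. All 8 genes did so through the probe set that stands for them, Rora in the lines alone, beside 10864 of all 18193 genes. The files hold no detection calls, and dim probe sets may therefore hold background only.

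On these arrays Zap70, Rora, Gata3 and Bcl11b were higher than wild type in both lines, Il2rb was slightly higher, Id2 was slightly lower, and the CD3 chain genes were not higher in Line 3. Zap70 alone of the 8 reached 2-fold above wild type in each line, on 1 of its 3 probe sets and in Line 6 by a margin that other scalings removed. Rora reached it in Line 3, while in Line 6 it did so only when the pseudocount was 1. Against wild type, 1 of the 8 genes was at least 2-fold higher in Line 6, where 3.73% of all 18193 genes were, and 2 of 8 in Line 3, where 3.8% of all genes were. In both lines together 1 of 8 was, against 1.5% of all genes. None of the 8 was at least 2-fold lower, against 3.21% of all genes in Line 6, 4.82% in Line 3 and 1.89% in both. Counts this small rest on single genes. The median difference of the 8 genes was 0.49 in Line 6 and 0.48 in Line 3, beside medians of 0.04 in either line over all genes.

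**Figure D1:**
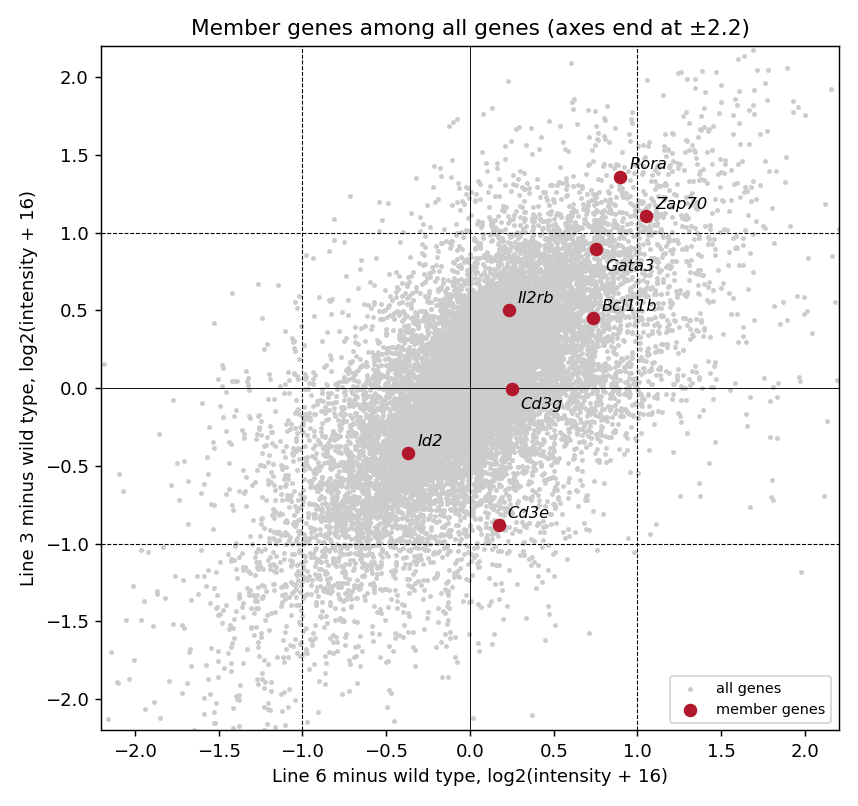
Difference of each gene from wild type in Line 6 (horizontal axis) and Line 3 (vertical axis), both on the log2(intensity + 16) scale and against the same wild type array. Grey points are all genes (115 lie outside the axes), red points the 8 member genes, and dashed lines mark 2-fold; Zap70 lies past 2-fold in both lines and Cd3e is lower in Line 3 alone.

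Among the transcription factors, Gata3, needed for T cell commitment and for innate lymphoid cells of type 2, had a single probe set. It read 149 on the wild type array, 262 for Line 6 and 290 for Line 3. Both lines were above wild type and close to each other. The differences were 0.76 in Line 6 and 0.89 in Line 3, which is 1.69-fold and 1.86-fold after the pseudocount is added, and they ran from 0.52 to 0.81 in Line 6 and from 0.73 to 0.96 in Line 3 over the alternatives tried.

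Rora, a nuclear receptor gene needed for innate lymphoid cells of type 2, had 9 probe sets. The brightest, 1420583_a_at, read 86.6 on the wild type array, 175 for Line 6 and 247 for Line 3. Line 3 was highest and wild type lowest, with differences of 0.90 and 1.36. Across the 9 probe sets, 7 were above wild type in both lines. In Line 3, 4 of the 9 were at least 2-fold higher, where 3.54% of all probe sets with 1 symbol were, and in Line 6 none was. Counted over all 24 member probe sets, 2 passed in Line 6 (1 of Zap70 and 1 of Bcl11b), where 3.89% of all did, and 5 in Line 3 (4 of Rora and 1 of Zap70). Probe sets of 1 gene share their transcript and are not replicates.

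The 4 Rora probe sets past 2-fold in Line 3 differed by 1.10 to 1.36. Those at 1436325_at (0.10 in Line 6 and 0.85 in Line 3), 1424034_at (0.32 and 0.54) and 1424035_at (0.84 and 0.56) lay above wild type by less. The Line 6 difference of 1436325_at turned to -0.14 after quantile normalization, -0.14 after centring on array medians and -0.12 after cyclic loess. The exceptions were the 2 dimmest probe sets. 1458145_at read 24.8, 21.8 and 16.1 in wild type, Line 6 and Line 3, and 1441085_at read 3.32, 3.09 and 3.46. Both lay far below the array medians on all 3 arrays. On the deposited scale Line 3 exceeded Line 6 on 7 of the 9 probe sets, by 0.46 on the brightest.

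Bcl11b, the zinc finger gene that seals the T cell fate, had 4 probe sets. The brightest read 119 on the wild type array, 209 for Line 6 and 169 for Line 3, and the next, 1435227_at, read 101, 228 and 157. On both, Line 6 was highest and wild type lowest, the reverse order of the lines from Rora. On the brightest, Line 3 minus Line 6 was -0.28 on the deposited scale. It was -0.14 after quantile normalization, -0.08 after centring on array medians and -0.16 after cyclic loess. The differences in Line 6 were 0.73 and 1.06, so that the second alone passed 2-fold, and those in Line 3 were 0.45 and 0.56. The 2 dimmer probe sets gave 0.02 and 0.42 in Line 6 and 0.34 and 0.25 in Line 3. The first of these, 1438784_at, was below wild type in Line 6 under each of the 3 other scalings, from -0.20 to -0.21.

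Id2, which encodes an inhibitor that binds E proteins and keeps them off DNA, was the one transcriptional regulator of the group with lower values in both lines. Its brightest probe set read 1464 on the wild type array, 1130 for Line 6 and 1092 for Line 3, differences of -0.37 and -0.42. The second read 1232, 987 and 1030, differences of -0.32 and -0.25. Both lines lay below wild type on both probe sets by less than 1.5-fold. The third, 1453596_at, read 135, 151 and 86.5, so that it was above wild type in Line 6 (0.15) and below it in Line 3 (-0.56). Under each of the 3 other scalings that probe set was below wild type in Line 6 too, from -0.076 to -0.086.

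**Figure D2:**
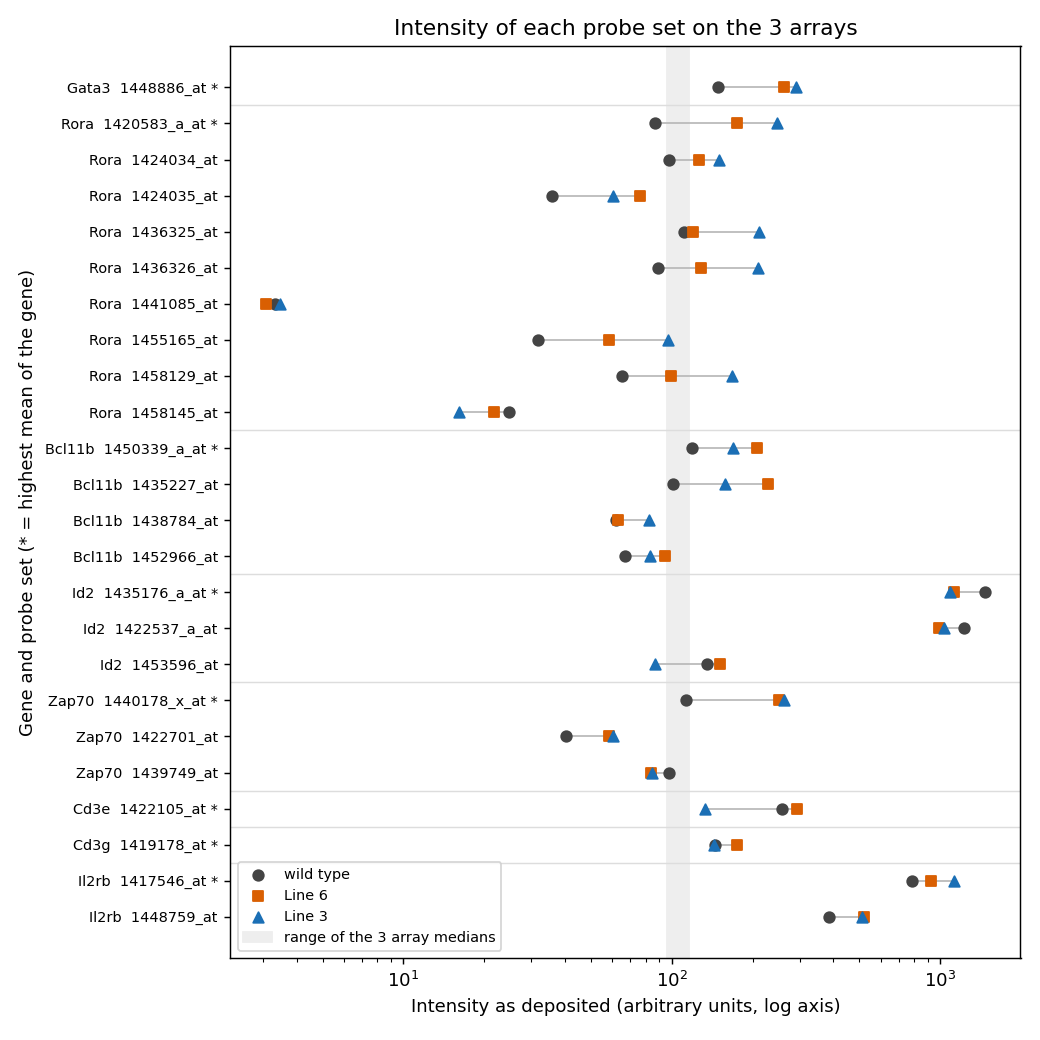
Intensity of all 24 probe sets of the 8 genes (rows, grouped by gene) on the wild type, Line 6 and Line 3 arrays, on a log axis; grey lines join the 3 values of a probe set. The grey band spans the 3 array medians, from 96.2 to 116, and an asterisk marks the probe set with the highest mean of its gene; the Zap70 probe sets differ in direction and 7 of the 9 Rora probe sets lie above wild type in both lines.

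Zap70, the kinase that docks on phosphorylated CD3 and zeta chains, gave values that depended on the probe set. The brightest, 1440178_x_at, read 113 on the wild type array, 252 for Line 6 and 262 for Line 3, which is 2.07-fold and 2.15-fold higher after the pseudocount of 16 is added. Its suffix marks a probe set whose probes may also bind other transcripts. The other 2 did not pass 2-fold, and they went opposite ways. 1422701_at read 40.3, 58.2 and 60.3, differences of 0.40 and 0.44, and 1439749_at read 97.4, 83.6 and 84.4, differences of -0.19 and -0.18. Line 3 minus Line 6 was 0.05, 0.04 and 0.01 on the 3 probe sets, so the disagreement lay between probe sets and not between lines. In Line 6 the brightest probe set also fell short of 2-fold under the 3 other scalings, at 0.82 to 0.86.

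Cd3e and Cd3g encode signalling chains of the T cell receptor complex, and each had 1 probe set. Cd3e read 258 on the wild type array, 292 for Line 6 and 133 for Line 3. Line 3 stood apart with the lowest value, while wild type and Line 6 were close. The differences from wild type were 0.17 in Line 6 and -0.88 in Line 3, and Line 3 was 2.07-fold lower than Line 6 after the pseudocount is added. It was the 1 gene of 8 past 2-fold between the lines, where 3.06% of all genes were lower in Line 3 by that much and 1.52% higher, and it lay inside 2-fold under the 3 other scalings, from -0.85 to -0.97. Its Line 6 difference turned to -0.06 after centring on array medians and to -0.011 after cyclic loess.

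Cd3g read 144 on the wild type array, 175 for Line 6 and 144 for Line 3, differences of 0.25 and -0.0039. Wild type and Line 3 were nearly equal and Line 6 was slightly above them, by 0.01 after centring on array medians. Cd3d, the third gene of this chromosome 9 cluster, read 295, 229 and 168, and so was lowest in Line 3 like Cd3e, but below wild type in Line 6 as well. Cd247, which encodes the zeta chain, read 1355, 1682 and 1330. Both were named after their values were seen. Summed over 9 T cell markers, which include these 4 genes, Cd4, Cd8a, Cd5 and Lat, intensity came to 2509 for wild type, 3124 for Line 6 and 2526 for Line 3, and the ninth, the thymocyte gene Ptcra, lay below 16 on all 3 arrays. By count, 7, 7 and 6 of the 9 reached the array median, and 10864 of all 18193 genes did so on at least 1 array. Their median difference was 0.25 in Line 6, with 7 of 9 above wild type, and -0.03 in Line 3, with 3 of 9 above. Of all 18193 genes, 10038 were above wild type in Line 6 and 9823 in Line 3.

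Il2rb, the receptor chain shared by interleukins 2 and 15 and carried by natural killer cells, was above wild type on both its probe sets. The brighter read 787 on the wild type array, 928 for Line 6 and 1123 for Line 3, differences of 0.23 and 0.50. The other read 384, 522 and 512, differences of 0.43 and 0.40. Both probe sets had wild type lowest, and none passed 2-fold. The Line 6 difference of the brighter one was -0.0042 after centring on array medians.

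Over the 24 probe sets, 16 were above wild type in both lines, 4 were below it in both and 4 went opposite ways. Over all probe sets with 1 symbol, 41.3% were above wild type in both lines, 32.5% were below it in both and 26.2% went opposite ways. The wild type array is common to both comparisons, and its chance values enter each of them. Centring on array medians lowered the Line 6 differences of all genes, whose median moved from 0.04 to -0.19, and it left 14 of the 24 probe sets above wild type in Line 6 where 19 were on the deposited scale.

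**Figure D3:**
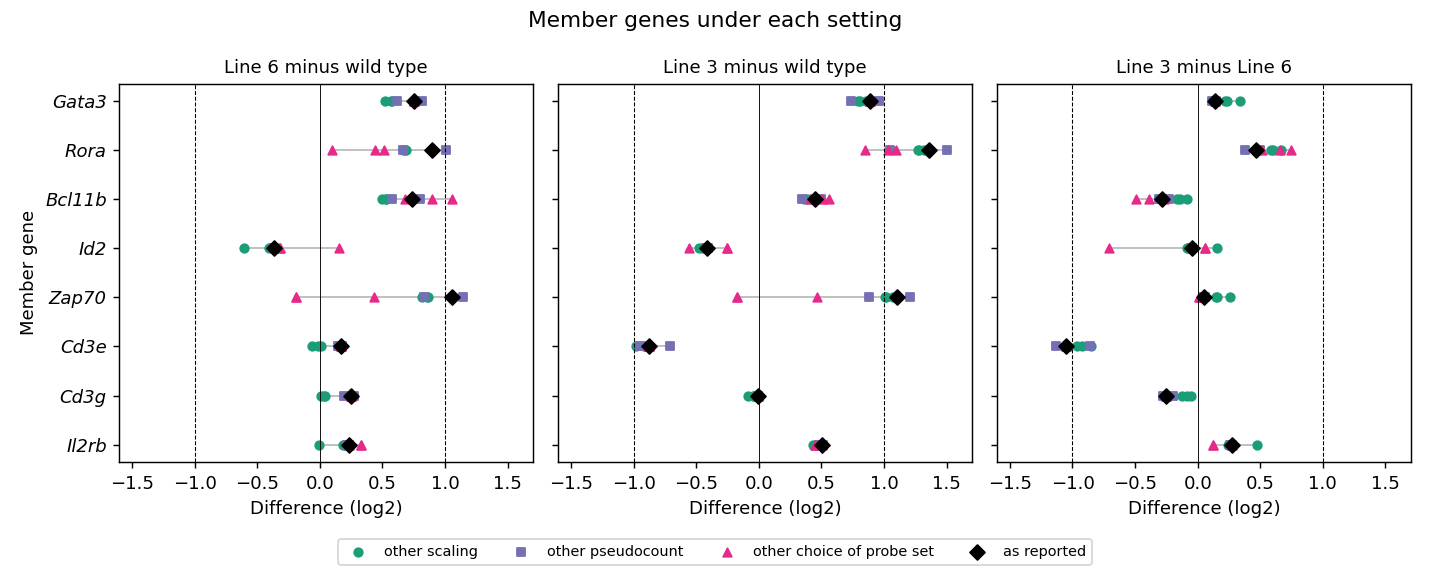
Difference of each member gene in the 3 contrasts, in log2 units, as reported (black diamonds) and with another scaling, pseudocount or choice of probe set (coloured symbols); dashed lines mark 2-fold. Zap70 and Rora spread widest over the choice of probe set in both lines, and Cd3e stays below 0 in Line 3 throughout.

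The next question was how other genes of the same cell types behaved. Counts past 2-fold in these lists are to be read against 3.73% of all genes higher in Line 6 and 3.8% in Line 3, and rest on 3 genes or fewer. Counts above wild type are to be read against 10038 of all 18193 genes in Line 6 and 9823 in Line 3. The medians of the T, natural killer and innate lymphoid lists lay above 0 in both lines. List medians are given on the deposited scale, and centring on array medians lowered every Line 6 difference. Of 26 T cell surface and signalling genes, 25 were measured, and none was 2-fold higher in Line 6, 3 were in Line 3 and none was lower in either. After centring on array medians, 1 gene of that list was 2-fold lower in Line 3. Their median was 0.44 in Line 6 and 0.28 in Line 3, with 17 genes above wild type and 8 below it in each line. By mean size over both lines, the leading genes were the adaptor gene Lat (0.99 and 1.15), the kinase gene Prkcq (0.87 and 1.23), Cd27, a costimulatory receptor gene also used on multipotent progenitors (0.83 and 1.22), and the interleukin 7 receptor gene Il7r (0.93 and 0.70). A second Il7r probe set differed by 1.20 and 0.53. Among the genes below wild type were the CD8 chain gene Cd8b1 (-0.59 and -0.97) and the adaptor gene Lcp2 (-0.46 and -0.54), named after their values were seen.

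Of 18 natural killer and cytotoxic genes, 17 were measured, with 1 at least 2-fold higher in Line 6 and 3 in Line 3. The median was 0.42 in Line 6 and 0.45 in Line 3, and 4 genes lay below wild type in Line 6 and 3 in Line 3. Eomes, a transcription factor gene of natural killer cells, read 58.8 on the wild type array, 134 for Line 6 and 134 for Line 3, just past 2-fold in both lines, and short of it under the 3 other scalings, at 0.77 to 0.79 in Line 6 and 0.95 to 0.97 in Line 3. The granzyme genes Gzma (0.70 in Line 6 and 1.20 in Line 3) and Gzmb (0.66 and 1.22) passed in Line 3, and Tbx21, which encodes T-bet, differed by 0.80 and 0.85. Il18rap, an interleukin 18 receptor chain gene named after its values were seen, differed by -0.83 and -0.81, from 2075 for wild type to 1164 and 1173. After centring on array medians, 1 gene of this list was at least 2-fold lower in Line 6, and 2 were higher in Line 3.

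Of 18 genes of innate lymphoid precursors and of type 2 and type 3 cells, 13 were measured, and their median was 0.58 in Line 6 and 0.50 in Line 3, with 1 gene at least 2-fold higher in each line and none lower. Il5 passed 2-fold in Line 6 (1.12) from intensities of 2.14 in wild type and 23.5 in Line 6, both far below the array medians. It differed by 0.89 after centring on array medians and was named after its values were seen. Arg1, the arginase gene of type 2 cells and macrophages, differed by 0.33 in Line 6 and just reached 2-fold in Line 3, where it fell just short under the 3 other scalings. Icos, a costimulatory receptor gene, differed by 0.96 and 0.84. Its other 2 probe sets at or above an array median differed by less, 0.57 and 0.32 on one and 0.23 and 0.68 on the other. Tox, a factor of early innate lymphoid precursors, differed by 0.58 and 0.76, and Nfil3, which acts upstream of Id2 in those precursors, by -0.70 and -0.63.

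The E protein genes, whose products Id2 binds, were above wild type in both lines on the brightest probe set of each. Tcf3 read 1192 on the wild type array, 2029 for Line 6 and 2216 for Line 3, differences of 0.76 and 0.89. Its other 2 probe sets at or above an array median differed by less, -0.00083 and 0.09 on one and 0.38 and 0.18 on the other. Tcf4 differed by 0.54 and 0.64, and Tcf12 by 0.43 and 0.36. The other Id genes, Id1 and Id4, were below wild type in both lines, with Id4 at -0.76 and -1.37, and Id3 differed by 0.26 in Line 6 and -0.40 in Line 3. Tcf4, Tcf12, Id1 and Id3 were named after their values were seen.

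Over the 21 partner and related transcription factors, medians were 0.31 in Line 6 and 0.36 in Line 3. In Line 6, 2 were at least 2-fold higher, Lef1 (1.83) and the dim Tox2 (1.01). In Line 3, Gata2, a factor of stem cells and mast cells, was 2-fold higher (1.05), and Id4 and Zbtb7b, which directs the CD4 lineage (-0.74 in Line 6 and -1.21 in Line 3), were 2-fold lower. A second Gata2 probe set differed by 0.37 in Line 6 and 1.27 in Line 3. Lef1, the closest relative of Tcf7, read 251 on the wild type array, 933 for Line 6 and 197 for Line 3. Line 6 stood apart, with a second Lef1 probe set at 1.42 in Line 6 and -0.60 in Line 3. B cell markers, 9 in all and without Lef1, summed to 3540 for wild type, 11303 for Line 6 and 4027 for Line 3, with median differences of 2.11 and 0.05, and their part in the Lef1 value was not tested. Lef1 and Tox2 were named after their values were seen.

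Among kinases and adaptors related to Lck and Zap70, 11 of 13 genes were measured, and 3 were at least 2-fold higher in Line 6, 2 in Line 3 and 1 lower in both. Fyn, the Src family kinase that works beside Lck in T cells, read 288 on the wild type array, 606 for Line 6 and 609 for Line 3, differences of 1.03 and 1.04. It fell short of 2-fold in Line 6 under the 3 other scalings and in Line 3 under quantile normalization and cyclic loess, and its second probe set gave 0.88 and 0.31. The B lineage kinase gene Blk (2.16 and 0.85) and the B cell adaptor gene Blnk (1.76 and 1.03) were higher, Blnk in Line 3 short of 2-fold under the 3 other scalings, and Fgr, the Src family kinase of myeloid cells, was lower (-1.20 and -2.07). Blk is itself one of the 9 B cell markers, and the part of B cells in the Blnk values was not tested either. Syk, the relative of Zap70 used in B and myeloid cells, differed by -0.19 and -0.44 and was named after its values were seen.

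Among partners of Il2rb, 11 of 12 genes were measured, and Socs3, a feedback inhibitor of cytokine signalling, was 2-fold lower in both lines (-1.72 and -1.96) with no other gene past 2-fold. Stat5a, which transmits the interleukin 2 and 15 signal, differed by 0.37 and 0.25, Cish, a STAT5 target, by 0.49 and 0.34, and Stat3 by -0.44 and -0.74. The list medians were -0.06 in both lines.

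**Figure D4:**
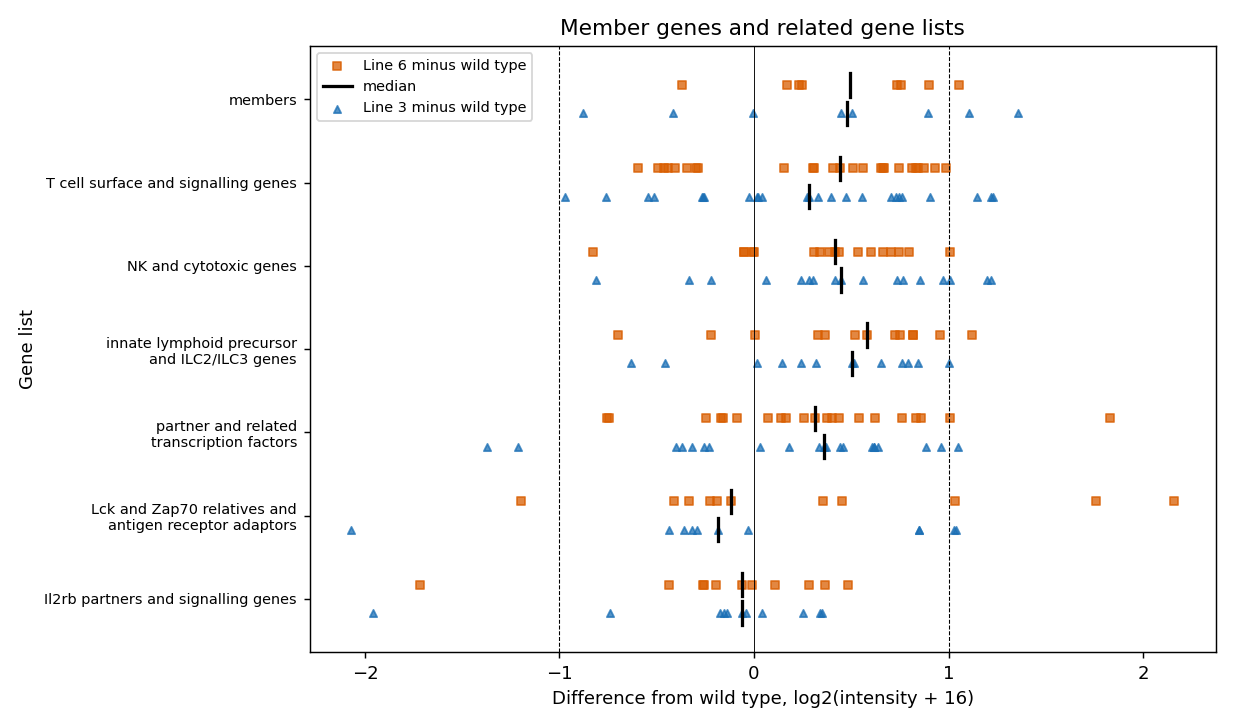
Difference from wild type of every measured gene in the member group and in 6 related lists, in Line 6 (orange squares) and Line 3 (blue triangles), on the log2(intensity + 16) scale; black bars are list medians and dashed lines mark 2-fold. The medians of the T, natural killer and innate lymphoid lists lie between 0.28 and 0.58, and the outlying points belong to Fgr, Blk, Blnk, Lef1 and Socs3.

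Markers of other cell types differed on the same arrays. Although the cells were labelled lineage-negative, all 10 neutrophil markers reached the array median on each array, as did 8, 9 and 7 of 9 B cell markers in wild type, Line 6 and Line 3. Over all 18193 genes, 10864 reached it on at least 1 array. In the order wild type, Line 6 and Line 3, summed intensities were 139341, 110438 and 96580 over 10 neutrophil markers, and 10490, 14459 and 17018 over 8 macrophage markers. They were 12949, 11967 and 22155 over 7 mast cell and basophil markers, and 21576, 21614 and 17829 over 6 erythroid markers. A sum is carried by its brightest genes, and the medians over genes did not always follow it. The neutrophil median was -0.41 in Line 6 and -0.72 in Line 3. The macrophage median was 1.47 in Line 6 and 1.84 in Line 3, where 5 and 6 of the 8 markers passed 2-fold upward, while bright Csf1r read 7100, 5825 and 6468. The mast cell and basophil median was 0.34 in Line 6, with 6 of 7 markers above wild type although the sum was lower, and 1.32 in Line 3, with 5 of 7 above. The erythroid median was 0.06 in Line 6 and 0.27 in Line 3, where 4 of 6 lay above wild type although the sum was lower. Over 9 stem and progenitor markers, which include Kit, Cd34 and Meis1, the sums were 12931, 17567 and 20317 and the medians 0.62 and 0.99. Ly6a itself was paired with no probe set. Kdm1a read 2104, 2575 and 2979, and whether its probes detect the transgene is not known here. Xist read 2729, 6152 and 5155, and the Y-linked Eif2s3y 2325, 978 and 1031. The part of these cell types, of the B cells and of sex in the values of the members was not tested.

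Genes with the most similar pair of differences from wild type were looked up for the 3 members past 2-fold in any contrast, by Euclidean distance over 10856 other genes, with only 3 arrays behind each pattern. For Rora they were Lgals3bp, Tbc1d32 and Rnf43, at distances of 0.03 to 0.07. For Zap70 they were Dlg3, 1700019D03Rik and Meis1, at 0.02 to 0.03, and Meis1 is itself a gene of stem cells (1.03 and 1.11). For Cd3e they were Rsad2, Mss51 and Zbtb39, at 0.07 to 0.10.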

How the data were processed

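Per the labels' protocols, total RNA extracted with Trizol was amplified (Ovation Pico WTA System), labelled with biotin and hybridised to Affymetrix arrays. The deposited values are intensities on a linear scale, 1 per probe set and array for 45037 probe sets. The authors had scaled them, since each array had the same mean, 497, once 2% was trimmed at both ends. How probes were summarised is not stated in the labels. The number of arrays limits the precision.

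Symbols came from the platform annotation (34945 probe sets with 1 symbol, 932 with several, 9160 not listed) and were updated through Entrez identifiers for 34741 (GRCm38.p6 gene table). Differences of log2(intensity + 16) were taken over all 18193 genes without a filter, and called at 2-fold. A filter keeping 10864 genes at or above the array median on at least 1 array was used only for naming genes and as an alternative.

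The members and lists were chosen with earlier results of these data known. Named were all members, up to 4 genes per related list with the largest absolute mean difference from wild type among those passing the filter, and the 3 nearest genes by pattern. Alternatives were 3 scalings, pseudocounts of 1 and 64, other choices of probe set, and limits of 1.5-fold and 3-fold. The tools were limma 3.58.1 in R 4.3.3, and matplotlib 3.10.9, scipy 1.17.1, pandas 2.3.3 and numpy 2.4.6 in Python 3.11.15.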

Additional observations from a re-analysis of the deposited data

Results flagged for a closer look

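Some genes lay on opposite sides of wild type in the 2 lines. None of these differences between the lines was tested, because each line had 1 array, and both lines share the wild type array. Of the 8 measured member genes, 2 lay on opposite sides, Cd3e and Cd3g, beside 25.1% of all genes. The opposite sign of Cd3g rested on a difference of -0.0039 from wild type in Line 3. Cd3e was -1.05 in Line 3 relative to Line 6 on the log2 scale, Cd3g -0.25, the Id2 probe set 1453596_at -0.71 and the Rora probe set 1441085_at 0.028, the last at an intensity of 3.09 to 3.46. Among other named genes, Lef1 was -2.15 in Line 3 relative to Line 6, Cd6, a T cell surface gene named after its values were seen, 1.19 from intensities of 17.9 in Line 6 and 61.1 in Line 3, and the genes closest to Cd3e in pattern, Rsad2, Mss51 and Zbtb39, -1.12, -0.96 and -1.04. Several of these opposite signs depended on the scaling. The Line 6 differences of Mss51, Zbtb39 and the Id2 probe set turned negative under quantile normalization, centring on array medians and cyclic loess, that of Cd3e under the latter pair and that of Rsad2 under centring (-0.07). B cell markers, summed over 9 genes, came to 3540 for wild type, 11303 for Line 6 and 4027 for Line 3, and their part in the Lef1 values was not tested.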

How the results depend on the processing

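The counts of member genes past 2-fold rested on 1 or 2 genes near the limit. Against wild type, the count of 1 higher in Line 6 became 0 after quantile normalization, centring on array medians and cyclic loess, with a pseudocount of 64, with the median of all probe sets, and at a limit of 3-fold; it became 2 with a pseudocount of 1 and 4 at a limit of 1.5-fold. With plain _at probe sets the Line 6 count stayed at 1, but the gene was then Bcl11b (1.06) and not Zap70 (-0.19). The count of 2 higher in Line 3 became 1 with a pseudocount of 64 and with the median of all probe sets, and 0 at 3-fold or when plain _at probe sets were used. At 1.5-fold, 3 genes were higher and 1 lower in Line 3. Between the lines, the count of 1 lower in Line 3 became 0 under the 3 scalings, with a pseudocount of 64 and at 3-fold. The median difference in Line 6 was 0.36 after quantile normalization, 0.25 after centring, 0.36 after cyclic loess, 0.20 with plain _at probe sets and 0.29 with the median of a gene's probe sets. In Line 3 it was 0.25 and 0.20 with the last 2 choices. Between the lines it was 0.20 after centring and -0.12 with plain _at probe sets. Zap70 turned to -0.19 in Line 6 and -0.18 in Line 3 with plain _at probe sets and with the median over all its probe sets, taken on each array before the arrays are compared, both of which then rest on 1439749_at; the median of its 3 probe set differences was 0.40 and 0.44. Taking the median over probe sets at or above the array median only, a choice made after seeing the data, gave 0 and 1 genes at least 2-fold higher in Line 6 and Line 3, with a median of 0.38 in Line 6. Apart from construction, the cause of these moves was not tested. Of 84 such values recomputed, 54 moved by at most 1.5 times (counts) or by less than 0.1 (medians). Many of these 54 were counts of 0 that stayed 0, so the tally overstates how stable the other values were. Filtering all genes at the array median left 10864 of the 18193 genes. The number past 2-fold higher went from 679 to 279 in Line 6 (3.73% to 2.57%) and from 692 to 388 in Line 3 (3.8% to 3.57%). The number lower went from 584 to 262 in Line 6 (3.21% to 2.41%) and from 877 to 484 in Line 3 (4.82% to 4.46%). In both lines together, 272 became 147 higher (1.5% to 1.35%) and 344 became 225 lower (1.89% to 2.07%). Between the lines, 276 became 77 higher (1.52% to 0.709%) and 557 became 172 lower in Line 3 (3.06% to 1.58%). No paired analysis was possible because each genotype had 1 array. Values near the array medians could not be told from background.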
